A study of Drosophila melanogaster with 2 samples.

Results

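The fourth chromosome of Drosophila melanogaster carried 128 of the 30000 emc-eGFP peaks of replicate 1 and 248 of the 30000 peaks of replicate 3. The pooled list held 190 chromosome 4 peaks of 29400, and 9 of the 1865 peaks kept by the authors' IDR step lay on it. IDR, the irreproducible discovery rate, measures how well ranked peaks recur between replicates. On each of the 6 chromosomes the IDR list held as many peaks as the 1865 strongest pooled peaks did. The 9 chromosome 4 IDR peaks had the same ranks in both lists. Absence from the IDR list thus goes with a lower pooled rank here, and does not by itself show that the replicates disagreed. Members were all peaks assigned to chromosome 4 in these dm6 lists, whatever their strength, so position alone chose them. The peaks came from chromatin immunoprecipitation and sequencing (ChIP-seq) of whole embryos aged 0 to 24 h, both sexes together, from a transgenic line that stably expressed extra macrochaetae (emc) joined at its C-terminal end to eGFP. Both samples carried this transgene and were precipitated with an antibody against GFP after sonication to 200 to 800 bp. They formed 1 group of 2 biological replicates, numbered 1 and 3, and the labels do not say which promoter drives the fusion or whether the collections were separate. The file listings deposited with the samples name a common further source file for both replicates' lists, whose nature they do not state, and no control library was analysed here. The replicate and pooled lists are described by the authors as peaks and background, so their weaker entries may be background regions.

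The emc protein dimerizes through a helix-loop-helix domain and has no basic region of its own to contact DNA, so it is known mainly for sequestering bHLH activators such as Daughterless away from their E-box sites. The fourth chromosome is the smallest of the fly karyotype. Its gene-rich arm is packaged largely as heterochromatin, with HP1a and the chromosome-specific protein Pof along its genes, and short INE-1 transposon remnants are scattered between and within the genes.

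The windows shown here, each 101 bp of the dm6 plus strand centred on a pooled summit, come from the 12 chromosome 4 peaks of highest pooled signal. Windows whose summit lay in an annotated UTR, those of a pair of overlapping peaks at Cals and of the peak in myo, are not shown. Capitals mark the E-box CANNTG, the motif of bHLH dimers, or the DNA replication-related element (DRE) TATCGATA. Both motifs read the same on either strand, with N standing for any base, and the 2 do not overlap each other in these windows. The first 7 are IDR peaks. The last 2 are the strongest promoter windows outside the IDR list, at pooled ranks 2408 and 2428. The PlexA peak was found in replicate 1 without an overlapping replicate 3 peak, and the Sox102F peak ranked much higher in replicate 3.
CR43437 upstream, chr4:424763-424863: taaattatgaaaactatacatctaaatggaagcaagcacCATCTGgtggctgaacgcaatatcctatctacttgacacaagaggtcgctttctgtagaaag
gw promoter, chr4:660094-660194: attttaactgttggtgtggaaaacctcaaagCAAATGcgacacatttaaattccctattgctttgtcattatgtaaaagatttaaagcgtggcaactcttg
RpS3A promoter, chr4:67256-67356: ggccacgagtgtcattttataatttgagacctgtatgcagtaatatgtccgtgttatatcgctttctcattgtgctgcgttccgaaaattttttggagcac
pho promoter, chr4:1181853-1181953: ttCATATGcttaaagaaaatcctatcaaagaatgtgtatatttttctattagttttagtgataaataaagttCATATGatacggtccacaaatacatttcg
zfh2 upstream, chr4:497893-497993: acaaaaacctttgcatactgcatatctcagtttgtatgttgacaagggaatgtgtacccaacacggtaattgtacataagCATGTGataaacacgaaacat
Asator upstream, chr4:489487-489587: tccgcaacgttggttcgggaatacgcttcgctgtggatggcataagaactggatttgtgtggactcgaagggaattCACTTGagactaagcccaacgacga
Asator intron, chr4:486678-486778: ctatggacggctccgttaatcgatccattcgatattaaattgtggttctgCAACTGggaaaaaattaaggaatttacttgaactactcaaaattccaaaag
PlexA promoter, chr4:1027160-1027260: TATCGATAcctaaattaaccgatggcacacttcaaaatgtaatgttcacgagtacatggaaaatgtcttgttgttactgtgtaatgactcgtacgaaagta
Sox102F promoter, chr4:807456-807556: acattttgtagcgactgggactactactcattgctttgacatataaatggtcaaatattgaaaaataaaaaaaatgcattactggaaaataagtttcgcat
An E-box stood in 6 of the 9 chromosome 4 IDR windows of this length, with an exact Clopper-Pearson 95% interval of 29.9 to 92.5%, and in 38.3% of all 1865 IDR windows. Over the pooled list the E-box was in 80 of 190 chromosome 4 windows, 42.1%, and in 42.6% of all 29399. The DRE, the binding sequence of the promoter factor DREF, was in 6 of 190 chromosome 4 windows, 3.16% (interval 1.17 to 6.75), and in 0.925% of all pooled windows. The share on X, 1.32%, lay inside that interval. None of the 9 chromosome 4 IDR windows held the DRE, against 2.95% of all IDR windows. A match describes the letters only and was not taken as a site.

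Peaks were sparser on the fourth chromosome than on any large arm in replicate 1, in the pooled list and in the IDR list. Over its 1348131 bp, replicate 1 had 94.9 peaks per Mb (exact Poisson 95% interval 79.2 to 113), against 173 on X, the lowest arm, and 244 on 3R, the highest. Replicate 3 had 184 per Mb (162 to 208) on the fourth chromosome, whose interval reaches the 198 of X but not the 225 to 234 of the autosomal arms. The pooled density was 141 per Mb (122 to 162), against 180 to 235 on the arms. The 9 IDR peaks gave 6.68 per Mb (3.05 to 12.7), against 13.3 to 14.9 on the arms. The chromosome is 1.01% of the length of the 6 chromosomes but held 0.427% of replicate 1 peaks and 0.827% of replicate 3 peaks. These intervals cover counting error only. Peaks are not replicates of a condition, so no test against the arms was made, and nothing here is called particular to the fourth chromosome.

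**Figure D1:**
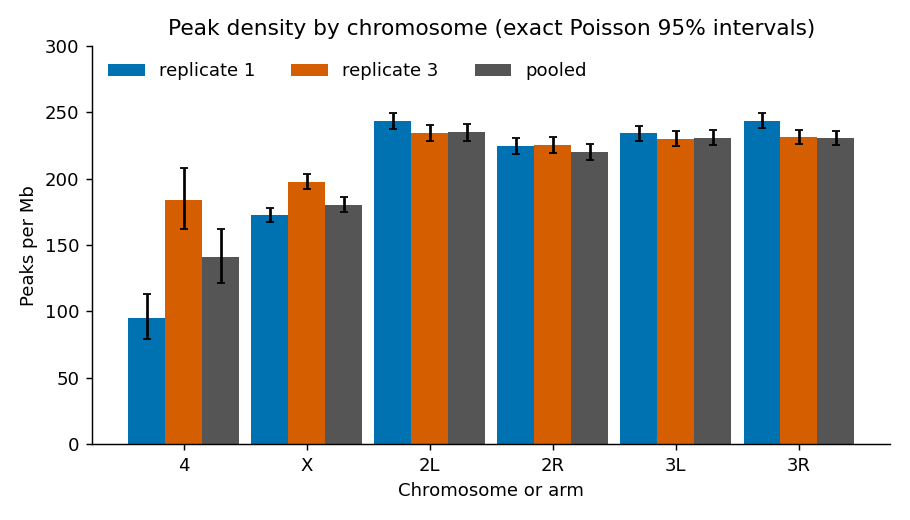
Peaks per Mb (y axis) on the fourth chromosome and the 5 large arms (x axis) in the replicate 1, replicate 3 and pooled lists, with exact Poisson 95% intervals as error bars. The fourth chromosome bars stand at 94.9, 184 and 141, and replicates 1 and 3 lie further apart there than on any arm.

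The 2 replicates differed in how many peaks they placed on the fourth chromosome. Replicate 3 had 1.94 times as many as replicate 1, whereas this ratio lay between 0.948 on 3R and 1.15 on X for the arms. Because each list holds 30000 peaks, the ratio gives shares of a list and not amounts of binding. The excess was spread along the chromosome: of the 13 segments of 100 kb with peaks, replicate 3 had more in 12 and the same number, 16, in the segment from 0.7 to 0.8 Mb. The busiest segment in all 4 lists was 0.4 to 0.5 Mb, which holds Asator and the region upstream of zfh2, with 19 replicate 1, 33 replicate 3, 24 pooled and 4 IDR peaks. The end of the chromosome from 1.3 Mb, of which 95.4% was annotated as transposable elements, held none in any list.

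The chromosome's composition differed from that of the arms too. Its GC content was 35.2%, against 41.6 to 42.6% on the arms, and transposable elements covered 24.8% of it, against 4.06 to 7.74%. It had 80 protein-coding genes, 59.3 per Mb against 93.3 to 113. Counted per coding gene, the fourth chromosome had 1.60 replicate 1 peaks, 3.10 replicate 3 peaks and 2.38 pooled peaks, against 2.15, 2.15 and 2.11 over the 5 arms together. On this scale replicate 3 was above the 5 arms together and replicate 1 was below. The pooled value was close to that of 3L, 2.37, and no interval is given for these values. Summits were also more widely spaced, with a median gap of 3877 bp in the pooled list against 2058 bp on 2R to 2652 bp on X.

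Replicate 3's chromosome 4 peaks were found again in replicate 1 less often than replicate 3's peaks on the arms. Of the 128 replicate 1 peaks, 51 overlapped a replicate 3 peak by at least 1 bp, 39.8% (31.3 to 48.9), and the share over all 6 chromosomes was 41.9%. Of the 248 replicate 3 peaks, 53 overlapped a replicate 1 peak, 21.4% (16.4 to 27.0), and the share over all 6 chromosomes was 44.3%. The 5 arms ranged from 41.6 to 45.7% in the second direction, and the chromosome 4 interval lies wholly below that range. There were 128 possible partners in this direction and 248 in the other. Overlap was nearly mutual, at 51 and 53 peaks, so the share in this direction is the lower one by the list sizes. The low share is thus not a result separate from the difference in peak numbers between the replicates.

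Strong peaks were shared on the fourth chromosome and weak ones mostly were not. Among the 3000 strongest peaks of each list, 12 of 15 chromosome 4 peaks of replicate 1 and 13 of 15 of replicate 3 met a peak of the other replicate, against 90.5% and 90.2% on the arms. For replicate 3 peaks ranked 10001 to 20000 the share was 14.9% (8.39 to 23.7), against 38.2% on the arms. At ranks 20001 to 30000 it was 13.3% (7.08 to 22.1), against 31.0%. Replicate 1 peaks at those ranks were shared at 33.3% and 32.6%, against 35.0% and 28.7%. Below the strongest ranks the gap to the arms was therefore seen in the replicate 3 list and within counting error in the replicate 1 list.

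**Figure D2:**
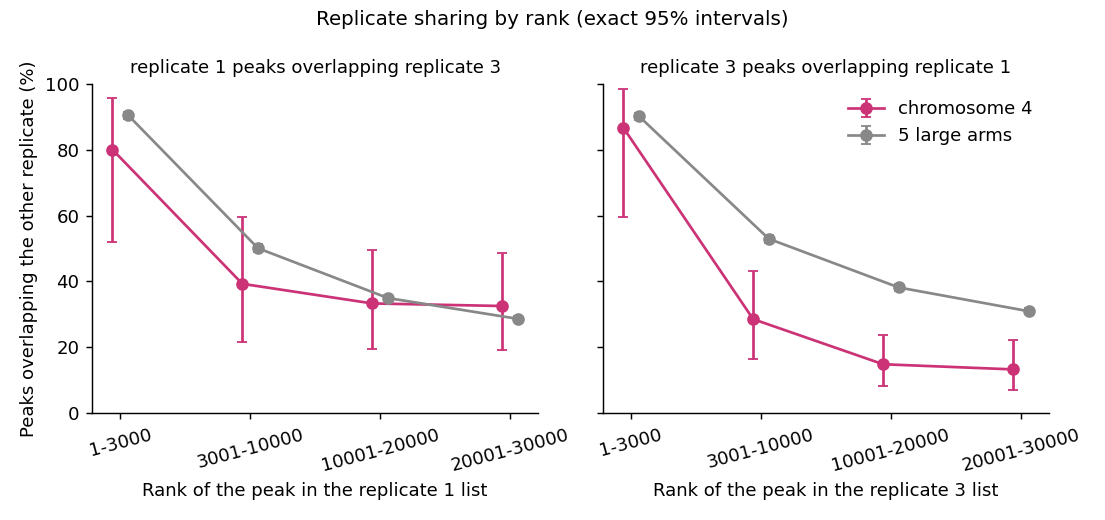
Percentage of peaks that overlapped a peak of the other replicate (y axis) by rank in their own list (x axis), for replicate 1 (left) and replicate 3 (right), with exact Clopper-Pearson 95% intervals. Chromosome 4 points lie below the arms from rank 3001 on in the right panel, at 28.6, 14.9 and 13.3%.

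More pooled peaks overlapped replicate 3 than replicate 1. Of its 190 chromosome 4 peaks, 52 overlapped peaks of both replicates, 87 of replicate 3 only, 32 of replicate 1 only and 19 of neither. Replicate 3 alone stood behind 45.8% (38.6 to 53.2), against 26.5% on the arms. The median signal, a value scaled by the authors' caller, was 32.4 for peaks met by both replicates and 23.4 for those met by replicate 3 alone.

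Where both replicates had a peak, their signals followed each other loosely. Over the 51 replicate 1 peaks with a replicate 3 partner, Spearman's rho was 0.22 and Pearson's r of log2 signal 0.57, against 0.46 to 0.58 and 0.71 to 0.76 on the arms. These are descriptions over peaks of 2 libraries, some of which share a partner. No interval is given for them, so their distance from the arm values is not read as a difference. The paired summits lay a median of 91 bp apart, against 60 to 77 bp on the arms. In 7 of the 51 pairs both peaks were above the 90th percentile of their lists, and among them the pairs at sv and Cals used the same replicate 3 peak. The share on the arms is not given here, so this count is not read as high or low.

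**Figure D3:**
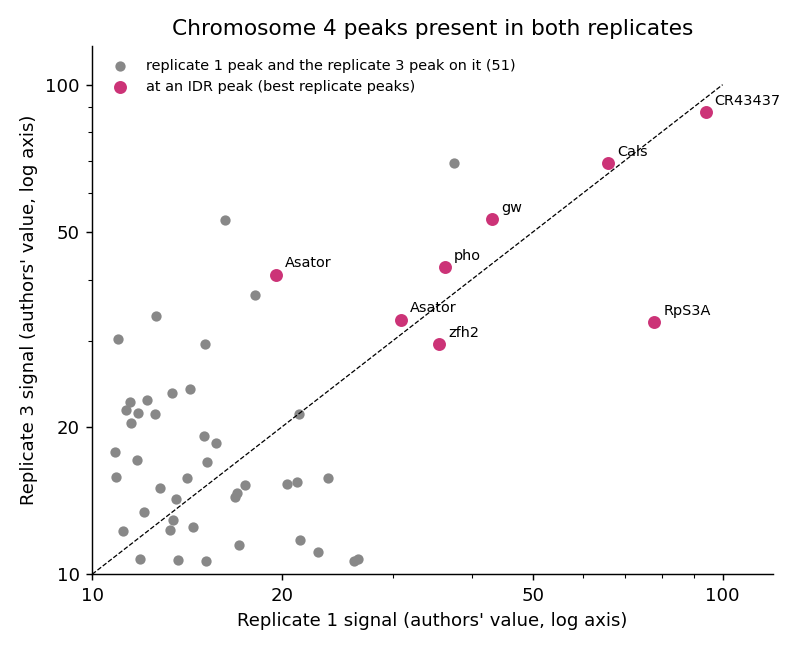
Replicate 1 signal (x axis) against replicate 3 signal (y axis), both the authors' values on log axes, for the 51 overlapping pairs on the fourth chromosome, with the replicate peaks at IDR peaks in colour and named by the nearest gene. The dashed line marks equal values, although the authors' signals were scaled per list, and RpS3A is the IDR peak farthest below it, at 77.9 and 32.8.

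By rank, chromosome 4 peaks were spread through each list and reached none of its top 100 places. The median percentile, with 100 as the strongest, was 52.8 in replicate 1, 45.1 in replicate 3 and 43.0 in the pooled list, and the arms lay between 46.6 and 51.7 in all 3. The best places were 161, 362 and 216. Of the pooled peaks 9 of 190 overlapped an IDR peak, 4.74% (2.19 to 8.80), and the share over all 6 chromosomes was 7.38%. Counting error does not separate these shares.

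The strongest chromosome 4 peak in every list lay in intergenic sequence at chr4:424623-425002, 1254 bp from the start of the long non-coding RNA gene CR43437. Its signal was 186 in the pooled list, 93.9 in replicate 1 (rank 161) and 87.8 in replicate 3 (rank 362). It is the first window shown above, and its E-box lies near the middle.

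A pair of overlapping IDR peaks lay at the facing 3' ends of sv and Cals. The sv gene (shaven) encodes a Pax family transcription factor and Cals encodes calsyntenin, a cadherin-type membrane protein of neurons. The first, chr4:1112928-1113307, had a pooled signal of 118 and its summit in the 3' UTRs of both genes. The other, chr4:1113174-1113553, had 104 and its summit in the Cals 3' UTR alone. Each replicate also had a pair of peaks there, at ranks 351 and 1080 in replicate 1 (signals 65.7 and 37.4) and 589 and 9686 in replicate 3 (69.1 and 17.6). The stronger peak of each pair was among the 1865 strongest of its list, and so was the weaker one of replicate 1 but not that of replicate 3.

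IDR peaks lay at 3 promoters. At gw (gawky, the GW182 protein of microRNA silencing) the pooled signal was 108, 161 bp from a start, with 43.1 in replicate 1 and 53.1 in replicate 3. At pho (pleiohomeotic, a DNA-binding Polycomb group protein) it was 79.0, 275 bp from the start, with 36.3 and 42.3. At RpS3A, a protein of the small ribosomal subunit, it was 104, 99 bp from the start. Its replicate 1 signal of 77.9 (rank 231) stood beside a replicate 3 signal of 32.8 (rank 2495), so the replicates differed more there than at gw or pho.

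The remaining IDR peaks clustered around Asator, a kinase of the tau tubulin kinase family, and zfh2, a zinc finger homeodomain transcription factor. An intergenic peak 3867 bp from the zfh2 start had signals of 77.9 pooled, 35.5 in replicate 1 and 29.5 in replicate 3. A peak 543 bp outside Asator had 65.2 pooled, 30.8 in replicate 1 and 33.1 in replicate 3. The peak in an Asator intron had 64.0 pooled, with ranks of 4884 in replicate 1 (19.6) and 1622 in replicate 3 (40.9). By rank, the zfh2 and outer Asator peaks stood higher in replicate 1 (1169 and 1507, against 3068 and 2444 in replicate 3) and the intronic one in replicate 3.

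Just under the IDR list, at pooled ranks 2343 to 2428, replicate ranks differed, as they did for the Asator intron peak within it. The peak in the 5' UTR of myo (myoglianin, a TGF-beta family ligand) had a pooled signal of 54.9, with ranks of 6371 in replicate 1 and 1975 in replicate 3. The promoter of PlexA, a semaphorin receptor, had 54.2 pooled and 39.5 in replicate 1 (rank 969), with no overlapping replicate 3 peak. The promoter of Sox102F, a Sox family transcription factor, had 53.8 pooled, 16.2 in replicate 1 (rank 9259) and 52.9 in replicate 3 (rank 1004). Of these, PlexA was high in replicate 1 and the others in replicate 3.

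Promoters, taken as 500 bp to either side of a start of a coding or non-coding RNA gene, held a somewhat smaller share of chromosome 4 summits than of all summits. In replicate 1 they held 25 of 128, 19.5% (13.1 to 27.5), against 23.0% over all 6 chromosomes. In replicate 3 they held 58 of 248, 23.4% (18.3 to 29.2), against 29.8%. In the pooled list they held 47 of 190, 24.7% (18.8 to 31.5), against 27.9%. The overall share lay inside the interval for replicate 1 and the pooled list and just above it for replicate 3. Promoter windows covered 10.1% of the chromosome and 12.2 to 14.5% of the arms. Of the 9 IDR summits 3 lay at promoters, against 60.9% of all IDR summits, and this interval runs from 7.49 to 70.1%. The other 6 were 3 intergenic, 2 in 3' UTRs and 1 in an intron.

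Peaks found in both replicates lay at promoters more often than the rest. In replicate 1, 33.3% of the 51 shared and 10.4% of the 77 unshared chromosome 4 summits lay there, and on the arms 36.0 and 13.7%. In replicate 3 it was 34.0% of 53 and 20.5% of 195, and on the arms 36.9 and 24.2%. The order was thus the same on the arms, although the chromosome 4 intervals for replicate 3, 21.5 to 48.3% and 15.1 to 26.9%, overlap.

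Coding exons took more chromosome 4 summits than arm summits and introns fewer. In the pooled list 54 of 190 lay in coding exons, 28.4% (22.1 to 35.4), against 19.0% on the arms. Introns held 38, 20.0% (14.6 to 26.4), against 33.0%. The coding exon share was 29.7% in replicate 1 and 25.0% in replicate 3, against 20.3 and 16.4%, and coding bases made up 19.7% of the chromosome and 15.8 to 18.0% of the arms. None of the 9 IDR summits lay in a coding exon, which allows a share of up to 33.6%.

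**Figure D4:**
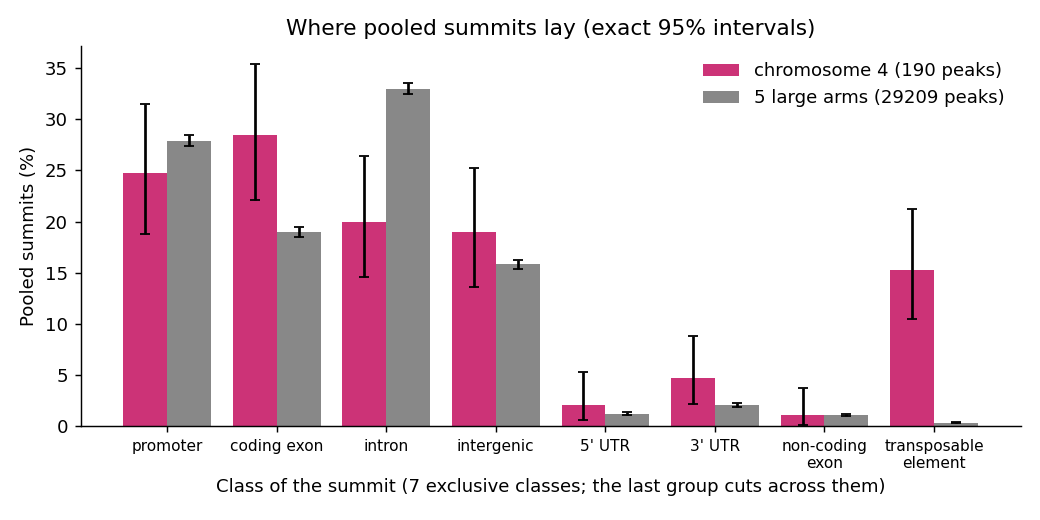
Percentage of pooled summits (y axis) in each of 7 exclusive classes and, separately, in annotated transposable elements, for the 190 chromosome 4 peaks and the 29209 peaks of the 5 arms, with exact Clopper-Pearson 95% intervals. Coding exons stand at 28.4 against 19.0%, introns at 20.0 against 33.0% and transposable elements at 15.3 against 0.346%.

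Summits in annotated transposable elements were common on the fourth chromosome. They numbered 15 of 128 in replicate 1, 11.7% (6.71 to 18.6), against 0.553% over all 6 chromosomes. In replicate 3 there were 38 of 248, 15.3% (11.1 to 20.4), against 0.500%, and in the pooled list 29 of 190, 15.3%, against 0.442%. None of the 9 IDR summits lay in one. Per Mb of transposable element the fourth chromosome had 44.9, 114 and 86.8 summits in these lists, against 19.8, 14.7 and 13.3 on the arms. Outside the elements the chromosome 4 densities were higher, at 111, 207 and 159 per Mb, against 238, 237 and 233 over the 5 arms together. X, the lowest arm, had 182, 208 and 190 there.

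INE-1 copies held 7 of the 15 such summits of replicate 1, 31 of the 38 of replicate 3 and 22 of the 29 of the pooled list. The 344 INE-1 annotations of the 566 elements on the chromosome cover 7.22% of it. Per Mb of INE-1 there were 71.9 (28.9 to 148) in replicate 1 and 318 (216 to 452) in replicate 3, against 84.2 and 137 over the 5 arms together. Single arms ranged from 58.6 on 2L to 143 on 3R in replicate 1. In replicate 3 they ranged from 72.5 on 3L to 334 (183 to 561) on 3R, so 3R was as dense as the fourth chromosome. In the other replicate, 2 of the 7 and 6 of the 31 met a peak. Replicate 3 had 120 more chromosome 4 peaks than replicate 1 and 24 more INE-1 summits. It had 1.86 times as many peaks outside all elements, and 1.65 times outside soft-masked bases, the repeats marked in the Release 6 sequence. Soft-masked bases held 11.7% of replicate 1 and 24.6% of replicate 3 summits on the chromosome, against 10.5 and 13.6% on the arms. The part of repeats in the difference in peak numbers was not tested. Copies of INE-1 resemble each other, so reads counted at one copy may belong to another. The sources used here do not give the authors' treatment of such reads.

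The base composition of the peaks differed between the replicates. The mean GC content within 100 bp to either side of chromosome 4 summits was 42.2% (SD 6.90, n = 128) in replicate 1 and 37.8% (SD 6.99, n = 248) in replicate 3, against 47.0 and 44.2% on the arms. In windows under 35% GC replicate 3 had 93 chromosome 4 peaks and replicate 1 had 19, a ratio of 4.89, against 2.08 on the arms. At 45% GC or more each had 40, a ratio of 1.00, against 0.761. The sharing of replicate 3 peaks changed along the same axis, from 14.0% under 35% GC (arms 45.2%) to 42.5% at 45% or more (arms 43.6%). Replicate 1 sharing did not fall in the same way, at 52.6% under 35% GC (10 of 19) and 45.0% at 45% or more, with 33.3% in both ranges between. Windows under 40% GC made up 138 of the 195 unshared replicate 3 peaks, 70.8%, and 166 of all 248, 66.9%. The part of GC content and of repeats in the low sharing was not tested.

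**Figure D5:**
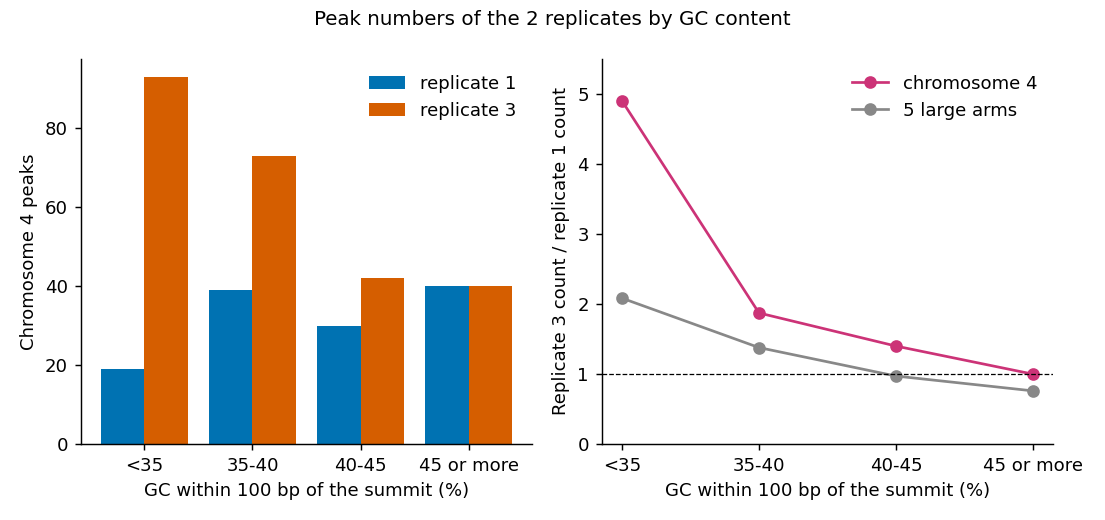
Number of chromosome 4 peaks of each replicate (left, y axis) and the ratio of replicate 3 to replicate 1 counts on the fourth chromosome and the arms (right, y axis), by GC content within 100 bp of the summit (x axis). The fourth chromosome ratio falls from 4.89 under 35% GC to 1.00 at 45% or more, and the arms fall from 2.08 to 0.761.

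Shares of some motifs differed between the replicates. TATAAA, searched on both strands within 100 bp to either side of the summit, was in 21.1% of replicate 1 and 36.7% of replicate 3 chromosome 4 windows, against 13.6 and 19.8% on the arms. The E-box forms CAGGTG and CACCTG are each other's reverse complement and a subset of CANNTG. They were in 12 of 128 replicate 1 windows, 9.38% (4.94 to 15.8), against 10.2% on the arms. In replicate 3 they were in 5 of 248, 2.02% (0.658 to 4.64), against 9.14%. In the same order of replicates, CAGCTG was in 7.81 and 4.84%, against 11.7 and 10.9%. CACGTG was in 3.91 and 2.42%, against 3.15 and 2.83%. GAGAG was in 25.0 and 18.5%, against 24.1 and 23.8%. The DRE was in 2 of 128, 1.56% (0.190 to 5.53), and 12 of 248, 4.84% (2.52 to 8.30), against 1.09 and 1.82%. On X the DRE was in 1.65 and 2.71%, inside these intervals. The general E-box CANNTG was in 60.9 and 59.3%, against 68.1 and 65.6%. The part of GC content in these shares was not tested.

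Of the 80 protein-coding genes on the chromosome, few had a summit near a start in replicate 1 and many in replicate 3. Within 500 bp of a start, replicate 1 marked 16 genes, 20.0% (11.9 to 30.4), against 43.6% of the coding genes of all 6 chromosomes. Replicate 3 marked 43, 53.8% (42.2 to 65.0), against 52.0%, and the pooled list 34, 42.5%, against 49.9%. Both replicates marked 14, 17.5% (9.91 to 27.6), against 33.9%. IDR peaks marked gw, pho and RpS3A, 3.75% (0.780 to 10.6), against 10.6%. Replicate 1 alone marked CG31998 and PlexA, replicate 3 alone marked 29 genes, and 35 had no summit in either. Neighbouring starts can share a peak, so numbers of marked genes are not numbers of separate peaks.

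In 13 of the 14 genes marked by both replicates, peaks of the 2 replicates near a start overlapped each other. CG11076 and ATPsynbeta were counted on the same pair of peaks. The share over all 6 chromosomes is not given here, so this count is not read as high or low. Of a list of 14 chromosome 4 transcription factors and cofactors, both replicates marked 5: dati, zfh2, ey, Sox102F and sv. For this and the lists below, the matching share was 17.5% of the 80 coding genes of the chromosome and 33.9% over all 6 chromosomes. With so few members, no list is read as high or low. The ey gene (eyeless, a Pax6 eye selector) was the exception to the overlap, with a replicate 1 peak of 15.9 and a replicate 3 peak of 33.8 at different starts. The strongest overlapping peaks at Sox102F had 16.2 in replicate 1 and 52.9 in replicate 3, and those at dati, a zinc finger factor of female mating behaviour, 20.4 and 15.3. The zfh2 start had 14.3 and 23.9, and sv had 15.2 and 16.9. Signals of the 2 lists were scaled apart, so they are compared by rank: dati stood higher in replicate 1 (ranks 4265 and 13510), and zfh2, Sox102F and sv stood higher in replicate 3. Replicate 3 alone marked toy (the second Pax6 gene), pan (the TCF factor of Wnt signalling) and lgs (legless, a coactivator in the same pathway). Neither marked ci, the Hedgehog effector, nor NfI, Hcf, onecut, fd102C and Mitf.

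Marking by replicate 3 alone was the commonest kind on the whole chromosome, at 29 of the 45 genes marked by either replicate, and the signalling and cell surface lists are given beside that. Of 10 ligand, receptor and guidance genes, both replicates marked PlexB, whose signals were 26.0 in replicate 1 and 10.7 in replicate 3, and PlexA was the only one marked by replicate 1 alone. Replicate 3 alone marked mav, myo and Actbeta, which encode TGF-beta family ligands, and mGluR and Cals. Ephrin, Eph and dpr7 had none. Of 10 kinases, small GTPases and adaptors, both replicates marked Crk, an SH2 and SH3 adaptor, with 17.0 and 14.6, and 7 were marked by replicate 3 alone.

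Among 9 genes of translation, respiration, repair and RNA, both replicates marked RpS3A, gw, Gyf and ATPsynbeta. Both marked 17.5% of all coding genes of the chromosome and 33.9% over all 6 chromosomes, and a list this short is not read as high or low. Gyf, a GYF domain protein, had 15.1 in replicate 1 and 29.6 in replicate 3. ATPsynbeta, a subunit of mitochondrial ATP synthase, shared its peak with the overlapping, divergent gene CG11076, at 21.3 and 11.7, and the pooled summit there lay in an INE-1 copy. Replicate 3 alone marked Tdg (a thymine DNA glycosylase), Rad23 and Pur-alpha, and the same peak, of signal 29.4, marked Tdg and Pur-alpha. Of 6 synapse and transport genes replicate 3 marked PMCA and Cadps and replicate 1 none. The Cadps peak also marked Dyrk3 of the kinase list. The 3 cytoskeleton and muscle genes, Ank, bt and Kif3C, had none in either replicate.

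Counting pooled peaks in the gene body or nearest to it, the leading genes were Sox102F, ey, zfh2, Tdg, Asator, dati and pan. Sox102F had 11 peaks in replicate 1, 11 in replicate 3 and 10 in the pooled list, and ey had 8, 6 and 10. The zfh2 gene had 5, 11 and 8, Asator 3, 10 and 6, and dati 4, 5 and 6. Sox102F, ey and dati were thus met by the replicates in similar numbers. The pan gene had 0, 9 and 6 and Tdg 1, 7 and 7, so most or all of their peaks came from replicate 3. These genes are 19.5 to 44.9 kb long, and peak numbers were not adjusted for length.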

How the data were processed

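The 2 ChIP-seq samples of 1 group were described from peak lists that the authors deposited on dm6 and dm3. The signal per peak is the deposited value of the authors' caller, used only to rank and describe peaks within a list, and the deposited −log10 q broke ties. Per the file headers and labels no read counts are given, so read depth is unknown. The sources used here do not give the aligner, peak caller or IDR cutoff. Each replicate list held 30000 peaks.

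Computed here from the dm6 lists were densities, overlaps (at least 1 bp), classes of summits, GC content and motifs, with the Release 6 sequence, its annotated transposable elements and Ensembl release 115 genes (BDGP 6.54). Each summit took the first class that held it: promoter, then 5' UTR, then coding exon, then 3' UTR, then exon of a non-coding gene, then intron, and otherwise intergenic. Shares carry exact Clopper-Pearson and densities exact Poisson 95% intervals, and no test was made, since 1 group of 2 replicates allows none. Overlap and distance steps were tested on simulated peaks.

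Genes named were those nearest to every IDR peak and to the 10 strongest peaks of each list, list members marked by both replicates, and the 5 with most pooled peaks, ties included. Other list members, CG31998 and CG11076 were named after their values were seen. Members and lists were chosen with earlier results of these data known. Descriptions of transposable elements and GC classes were chosen after seeing the data. Arf102F and Thd1 are listed as Arf4 and Tdg. Software was scipy 1.17.1, pandas 2.3.3 and numpy 2.4.6 under Python 3.11.15, with matplotlib 3.10.9 for plots.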

Additional observations from a re-analysis of the deposited data

How the results depend on the processing

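The replicate 1 share that met replicate 3, 39.8%, fell to 30.5% when 50% reciprocal overlap was required and to 24.2% when summits had to lie within 100 bp. The reverse share, 21.4%, was 12.5% under the summit rule and 16.5% under reciprocal overlap. Overlap is nearly mutual, so its place below the replicate 1 share follows from the list sizes, 248 and 128 peaks, under any rule. In the dm3 lists the shares were 41.7 and 20.6%, and outside transposable elements, an alternative chosen after seeing the data, 43.4 and 22.4%. The pooled promoter share of 24.7% was 16.8% within 250 bp, 36.8% within 1000 bp, 20.5% with coding genes only, 33.3% in the IDR list and 34.7% among the peaks of above-median signal, and the lists of single replicates gave 19.5 to 23.4%. The median percentile of 43.0 was 45.1 to 52.8 in single replicates. The number of coding and non-coding genes with a pooled summit near a start, 47 of 110, was 22 to 60 in single replicates, with replicate 1 the lower. This count includes entries for mature microRNAs. Pooled density was 141 per Mb, 117 in dm3 (over the dm6 length, as the dm3 length was not used here), 94.9 to 184 in single replicates, 167 outside soft-masked bases and 159 outside transposable elements, the last chosen after seeing the data. The 5 arms together had 243 outside soft-masked bases and 233 outside transposable elements. The cause of these shifts was not tested. The 9 IDR peaks limit every share given for them, and without read depth the precision of single signals is unknown.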
